A study of Mus musculus with 12 samples.

Results

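A20 tumors injected with a stable emulsion alone (SE) were compared with A20 tumors injected with PBS, 4 tumors against 4 of the 12 in the series, over the 750 genes of a mouse immune panel of 770 that are not its reference genes. The tumors were chosen by their titles alone, SE 1 to 4 and PBS 1 to 4. A20 is a B-cell lymphoma line of Balb/c origin, and every tumor grew from wild-type A20 cells placed under the skin of a female Balb/c mouse. The mice had been purchased at 7 to 8 weeks of age. About 7 days after the cells were implanted, PBS, SE or GLA-SE was injected into the tumor every other day, 3 times in all. GLA-SE, also named G100, is 10 µg of the TLR4 agonist GLA in 50 µl of 2% SE. The tumor was collected 2 h after the last injection. Each tumor came from its own mouse. SE carries everything in GLA-SE except GLA, so the comparison with PBS asks what the vehicle did to the injected tumor. RNA was hybridized to barcoded nCounter probes, and the deposited values are whole-number probe counts. The total count per tumor was 812522 to 1086462 with PBS and 810260 to 1268512 with SE.

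Oil-in-water emulsions of this kind are vaccine adjuvants. At an injection site they are known to draw in monocytes and neutrophils, to be taken up by phagocytes, and to help antigen reach dendritic cells, without a ligand for a Toll-like receptor of their own. In an A20 tumor most cells are malignant B cells, which already carry MHC class II molecules and present peptides to CD4+ T cells, so a change in an antigen presentation gene may come from the lymphoma as well as from the cells around it. In a whole tumor, fewer cells of a type and less RNA per cell cannot be told apart.

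Counts were scaled to the 15 of the 20 reference genes that were most stable over the 8 tumors (normalized counts), and differences are given as the log2 fold change of SE over PBS with its standard error. No gene passed the threshold of an adjusted p under 0.05 in edgeR's quasi-likelihood test, 0 of 750 (0%) with all 8 tumors and 0 of 750 (0%) without SE 4. The smallest adjusted p was 0.228 with all tumors and 0.11 without SE 4, so no gene is said here to have risen or fallen, and values are given instead. At an unadjusted p under 0.05 there were 147 genes (19.6%), 141 of them higher (18.8%) and 6 lower (0.8%) in SE tumors. Without SE 4 there were 93 (12.4%), 80 of them higher (10.7%) and 13 lower (1.73%). DESeq2 with the same scaling called 66 genes (8.8%) with all tumors and 28 (3.73%) without SE 4, of which 22 were called both times in the same direction, and with all tumors it had 265 (35.3%) at an unadjusted p under 0.05. Limma called 0 (0%) both times and had 71 (9.47%) and 85 (11.3%) genes at an unadjusted p under 0.05. In 70 genes (9.33%) every SE tumor lay above every PBS tumor, and in 7 (0.933%) every SE tumor lay below. Without SE 4 these counts were 86 (11.5%) and 19 (2.53%). For such a gene the exact two-sided permutation p was 0.0286, the smallest that 70 assignments of 8 tumors allow, and 0.278 after Benjamini-Hochberg adjustment.

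The SE tumors did not form 1 group. The median log2 ratio of a tumor's panel genes to the PBS mean was -0.08 in SE 1, -0.09 in SE 2, 0.60 in SE 3 and 1.30 in SE 4, against -0.08 to 0.13 in the PBS tumors. SE 3 and SE 4 were the highest 2 of the 8 tumors for 475 genes (63.3%), and in 349 of these SE 1 and SE 2 were within or below the PBS range. SE 4 alone was highest of all for 546 genes. The reference genes of SE 4 were also the lowest, with a geometric mean of 959 counts over all 20 against 1460 to 2587 in SE 1 to 3 and 1869 to 2357 with PBS. Alas1, a reference gene left out of the scaling, stood at 427 on average with PBS and 1040 in SE 4. Over all 750 genes the log2 fold changes had a median of 0.56 with all tumors and 0.22 without SE 4, and of -0.04 and 0.05 when each tumor was scaled to its panel median instead. A fold change near 0.56 is thus the size of the shift of the whole panel, and the gene groups below are to be read against it. The cause of the difference between SE tumors was not tested.

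**Figure D1:**
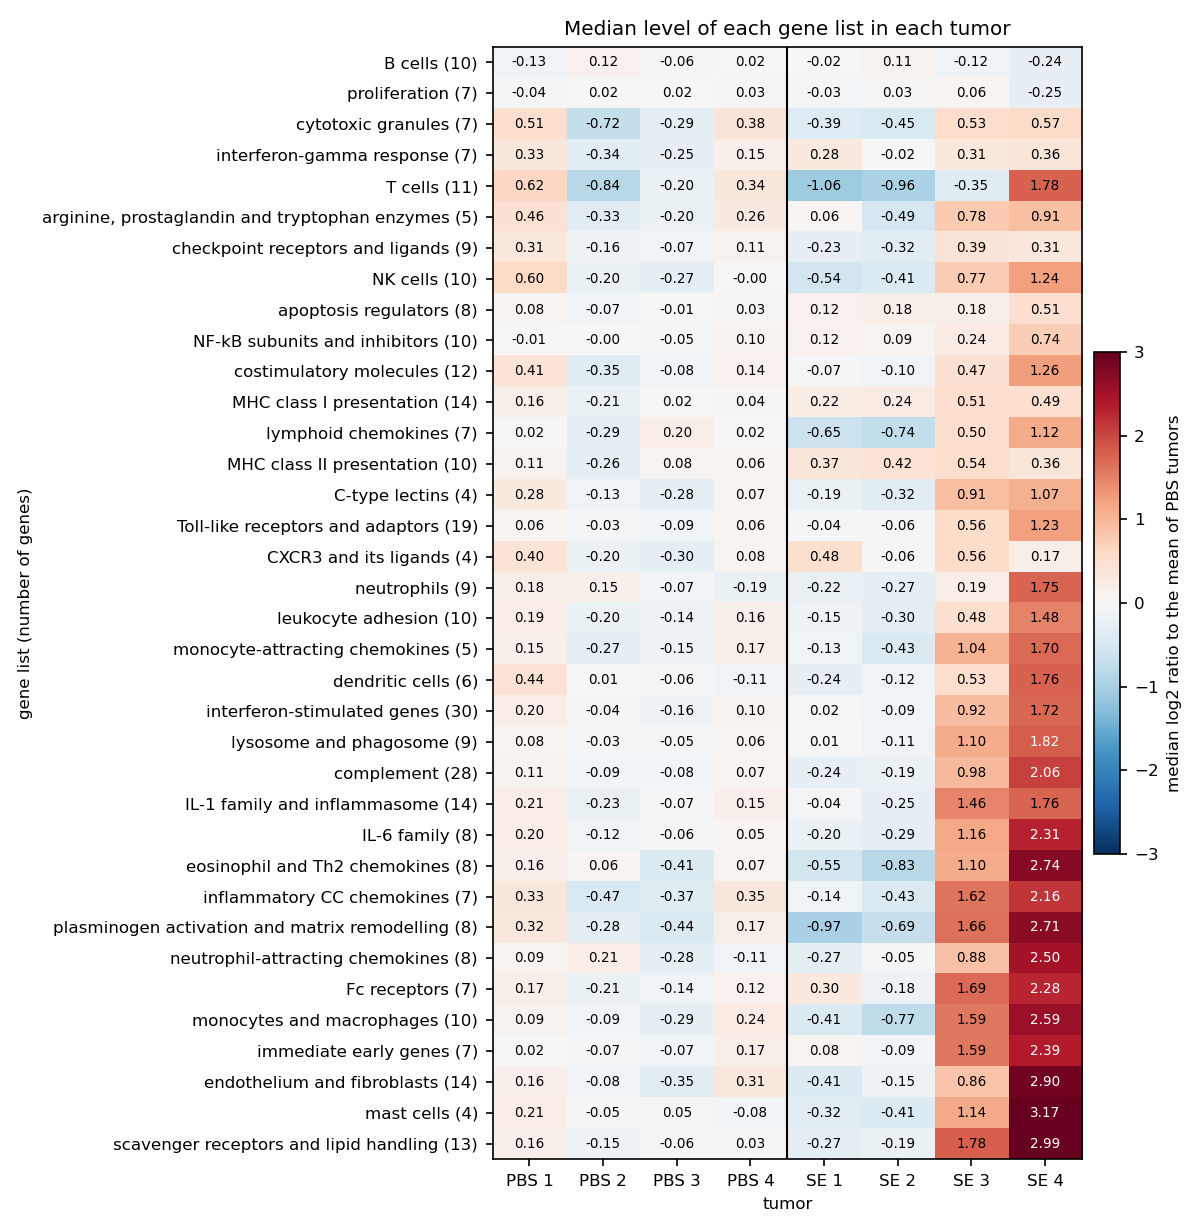
Median log2 ratio to the mean of the PBS tumors (colour and printed value) for 36 gene lists (rows, with the number of genes) in each of the 8 tumors (columns), after scaling to the reference genes. SE 1 and SE 2 lay near or below the PBS tumors for most lists, SE 3 and SE 4 above them. The MHC class II, MHC class I and apoptosis lists were above every PBS tumor in all 4 SE tumors. The apoptosis list's median log2 fold change was 0.29, below the panel's 0.56, and -0.14 with panel median scaling.

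Which genes set SE tumors apart whichever way the tumors were scaled? Under reference gene, panel median and TMM scaling alike, 9 genes had no overlap between the groups, 5 higher (0.667% of the panel) and 4 lower (0.533%) in SE tumors. All 9 also held without SE 4, but leaving out a tumor cannot make separate groups overlap unless the scaling changes. Only the TMM scaling could change here, so this adds little. The 9 genes were picked after their values were seen. The 5 higher genes were Il1a, Nt5e, Irf7, Alcam and Cfb, and the 4 lower genes were Lta, Ada, Tnfsf4 and Mmp9.

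Il1a encodes interleukin-1 alpha, a cytokine released by damaged cells that starts inflammation. Its normalized counts, given here and below in the order of tumors 1 to 4, were 30.9, 23.6, 36.7 and 34.4 in the PBS tumors and 52.0, 62.2, 132 and 159 in the SE tumors. Every SE tumor was higher, with a log2 fold change of 1.68 ± 0.44 with all tumors and 1.38 ± 0.39 without SE 4. Nt5e encodes CD73, the surface enzyme that makes adenosine from AMP, and counted 52.4, 37.8, 64.7 and 49.6 in the PBS tumors and 89.1, 75.9, 270.0 and 360.3 in the SE tumors (1.95 ± 0.56). SE 1 and SE 2 cleared the highest PBS tumor by a small margin, and SE 3 and SE 4 were several times higher. Irf7, a transcription factor that drives type I interferon genes, counted 226, 188, 148 and 206 in the PBS tumors and 242, 262, 641 and 798 in the SE tumors (1.33 ± 0.43, and 0.99 ± 0.37 without SE 4). Alcam encodes the adhesion molecule CD166 and Cfb encodes factor B of the alternative complement pathway. Their counts in the SE tumors were 369, 320.4, 881 and 1495 for Alcam and 675, 647, 1133 and 2387 for Cfb, against 213 to 275 and 379 to 603 in the PBS tumors. Relative to the reference genes, all 5 genes had a small step in SE 1 and SE 2 and a larger one in SE 3 and SE 4. The whole panel was shifted in SE 3 and SE 4 too, with medians of 0.60 and 1.30, so this shape was not particular to these genes.

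Lta encodes lymphotoxin alpha, a cytokine of lymphocytes that maintains lymphoid tissue, and counted 859, 1013, 774 and 909 in the PBS tumors and 591, 579.6, 604 and 446 in the SE tumors. The SE tumors averaged 555 ± 73.4 (SD, n = 4) and the PBS tumors 888 ± 99.9 (SD, n = 4), a log2 fold change of -0.68 ± 0.16, and -0.59 ± 0.12 without SE 4. Ada encodes adenosine deaminase, which removes adenosine, the product of the enzyme that Nt5e encodes. It counted 872, 1099, 783 and 854 in the PBS tumors and 645, 607, 631 and 686 in the SE tumors (-0.49 ± 0.15, and -0.52 ± 0.13 without SE 4). The SE tumors averaged 642 ± 33.3 (SD, n = 4). Tnfsf4, which encodes OX40 ligand, a costimulator of T cells, counted 76.7, 49.1, 51.4 and 56.8 in the PBS tumors and 31.7, 28.5, 39.1 and 34.3 in the SE tumors (-0.81 ± 0.28). Mmp9 encodes a gelatinase made by myeloid cells and counted 241, 397, 149.9 and 348 in the PBS tumors and 124, 104, 109 and 135 in the SE tumors (-1.27 ± 0.34, and -1.34 ± 0.35 without SE 4). The PBS tumors varied widely in Mmp9, and the gap between PBS 3 and SE 4 was narrow. None of these 4 followed the panel shift of SE 3 and SE 4, so their fold changes were further from 0 with panel median scaling, between -0.87 for Ada and -1.67 for Mmp9.

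**Figure D2:**
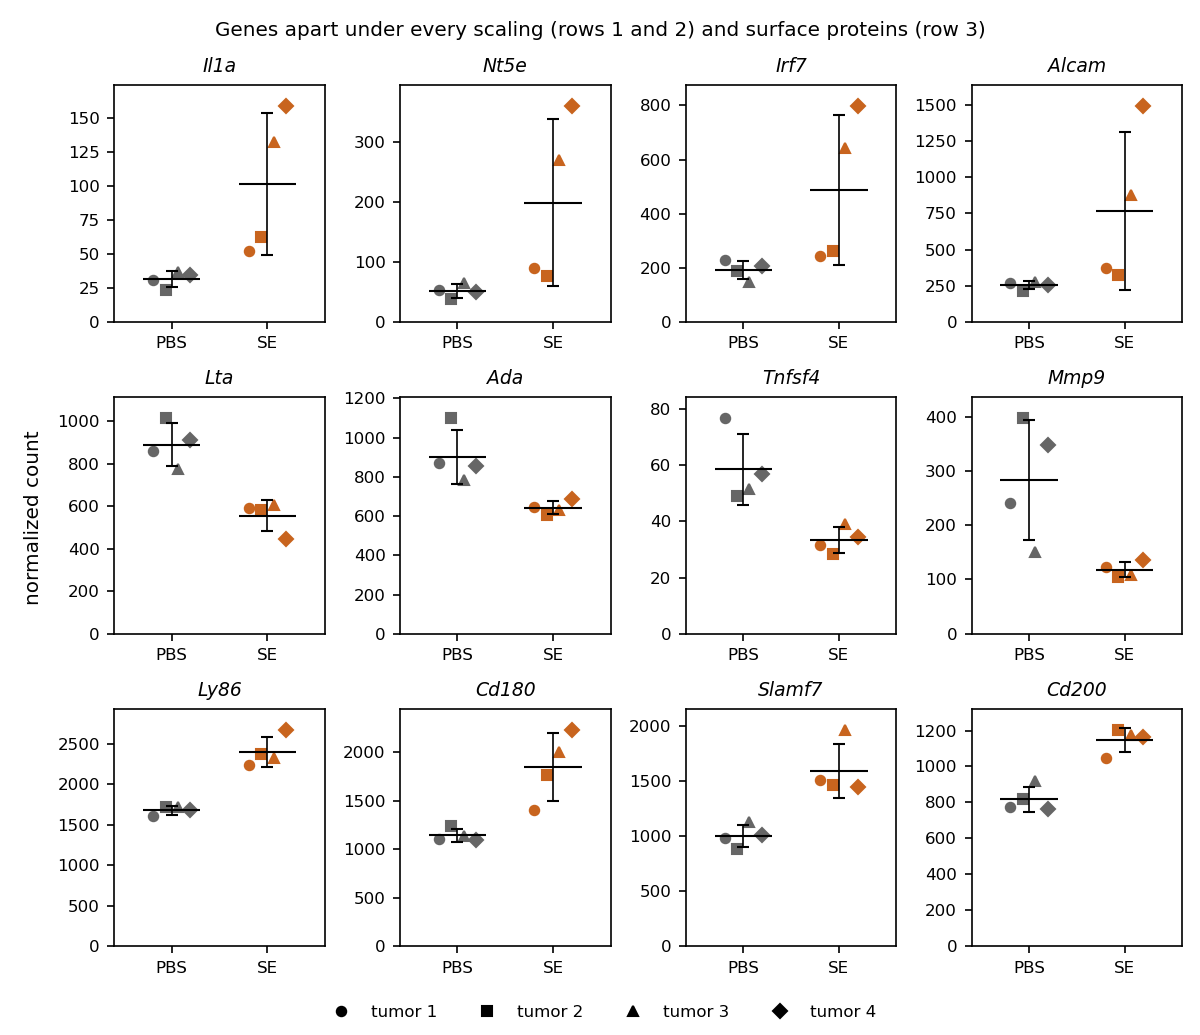
Normalized counts (vertical axis, from 0) of 12 genes in 4 PBS (grey) and 4 SE (orange) tumors, 1 symbol per tumor number, with the group mean (line) and SD (bar). Il1a, Nt5e, Irf7 and Alcam were higher in all SE tumors and highest in SE 3 and SE 4, Lta, Ada, Tnfsf4 and Mmp9 were lower in all, and Ly86, Cd180, Slamf7 and Cd200 were higher in all.

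MHC class II genes made up several of the genes without overlap relative to the reference genes. Their promoters share a short conserved upstream region bound by the factors that recruit CIITA, and the Y box of this region holds the inverted CCAAT letters. The upstream sequences of 4 genes of the list are shown as examples of entries that hold these letters, so the set shown was chosen for them. H2-DMb1, which also holds them, is not shown because its counts were low. Each is the 120 bases before the transcript start, 5′ to 3′ on the strand of the gene, from RefSeq on build GRCm38.p6, with every match to the letters TGATTGG, on either strand, in capitals.

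H2-Aa: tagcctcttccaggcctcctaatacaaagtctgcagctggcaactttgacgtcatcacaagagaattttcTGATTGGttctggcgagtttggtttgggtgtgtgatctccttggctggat
H2-Eb1: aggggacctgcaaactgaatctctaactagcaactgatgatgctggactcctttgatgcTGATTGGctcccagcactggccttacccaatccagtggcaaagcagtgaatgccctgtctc
H2-DMb2: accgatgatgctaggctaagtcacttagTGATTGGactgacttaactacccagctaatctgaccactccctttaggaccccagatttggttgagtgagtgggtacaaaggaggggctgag
H2-Ob: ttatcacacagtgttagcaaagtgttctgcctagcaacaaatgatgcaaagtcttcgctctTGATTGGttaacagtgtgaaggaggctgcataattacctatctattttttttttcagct

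These lie at chr17:34287824-34287943 on the reverse strand for H2-Aa and, on the forward strand, at chr17:34305747-34305866 for H2-Eb1, chr17:34145129-34145248 for H2-DMb2 and chr17:34238785-34238904 for H2-Ob. Of the 10 genes of the list, 6 were counted, and 5 of the 6 held TGATTGG in the 250 bases before a start. Of all 32851 promoters of the table, 7.23% held it. Cd74 was left out of this count, and H2-Ab1, Ciita and H2-Ea-ps had no entry in the promoter table. H2-Dma was the counted gene without the letters. A match describes letters and was not tested as a binding site.

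H2-Ea-ps, the E alpha chain gene, is named a pseudogene for strains that do not make the chain, while Balb/c mice do. It counted 19866, 14208, 21428 and 19669 in the PBS tumors and 28310.2, 31137, 35024 and 33037 in the SE tumors. The SE tumors averaged 31877 ± 2859 against 18793 ± 3156 (SD, n = 4 each), a log2 fold change of 0.76 ± 0.15 with all tumors and 0.74 ± 0.15 without SE 4, where its edgeR adjusted p was 0.153. Its partner chain gene H2-Eb1 counted 9152, 6792, 8774 and 8353 in the PBS tumors and 9374, 9505, 12966 and 14066 in the SE tumors (0.47 ± 0.18), with SE 1 only just above PBS 1. H2-Aa and H2-Ab1 encode the A alpha and A beta chains. H2-Aa counted 42404, 35046, 42913 and 41610.0 in the PBS tumors and 52298, 54515, 59984 and 59467 in the SE tumors (0.48 ± 0.12). H2-Ab1 counted 12391, 9764, 11957 and 11512 in the PBS tumors and 14638, 15143, 17806 and 16749 in the SE tumors (0.50 ± 0.12). Cd74 encodes the invariant chain that guards the class II groove, and it was among the most abundant transcripts measured, at 75861, 69995, 81555 and 76154 in the PBS tumors and 93975, 103324, 105596 and 95477 in the SE tumors (0.39 ± 0.11). The genes of both chain pairs and of the invariant chain thus stood above the PBS range in all 4 SE tumors, including SE 1 and SE 2.

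Ciita encodes the transactivator on which these genes depend. It counted 436, 279, 428 and 421 in the PBS tumors and 583, 572, 544 and 499.8 in the SE tumors, again without overlap, with a log2 fold change of 0.49 ± 0.19. The genes of peptide loading were closer to the PBS tumors. H2-DMb2, a subunit of the peptide exchange factor H2-M, counted 4312, 3842, 4239.8 and 4493 in the PBS tumors and 5542, 5975, 4751 and 3966 in the SE tumors, so SE 4 fell inside the PBS range and SE 1 to 3 lay above it. H2-Ob, a subunit of the inhibitor H2-O, and H2-Dma, the other subunit of H2-M, likewise had SE 4 inside the PBS range and SE 1 to 3 above it, with log2 fold changes of 0.34 and 0.31 without it. H2-DMb1 was near the lower end of the counts, at 26.2, 14.2, 17.6 and 19.2 in the PBS tumors and 22.3, 22.1, 34.1 and 23.6 in the SE tumors, and overlapped. In all, 6 of the 10 class II genes lay above every PBS tumor with all 8 tumors and 9 of 10 without SE 4, where 9.33% and 11.5% of the panel did. The list had a median log2 fold change of 0.44 and 0.42, below the panel median of 0.56 with SE 4 and above the 0.22 without it.

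The class II result depended on the scaling, with and without SE 4. With panel median scaling of all 8 tumors, 0 of the 10 genes separated and the list's median was 0.03, and with TMM it was -0.003, with Cd74 at -6.5e-04, H2-Eb1 at -0.005 and H2-Ea-ps at 0.35. Without SE 4 all 10 genes had a log2 fold change above 0 under each scaling, but 0 of 10 separated with panel median and 1 of 10 with TMM scaling, and the median was 0.33 with panel median and 0.30 with TMM scaling. Relative to the reference genes, SE 4 had class II levels like those of the other SE tumors, at 0.37, 0.42, 0.54 and 0.36 on the log2 scale for SE 1 to 4. The summed counts of the B cell markers, which the lymphoma cells share, were 25372 to 29692 with PBS and 26156, 28809, 23004 and 19733 with SE, and their part in the class II values was not tested. PBS 2 was the lowest PBS tumor for all 10 class II genes, and leaving it out gave 0.65 for H2-Ea-ps and 0.42 for H2-Aa.

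Of the 14 genes of the class I list, 5 lay above every PBS tumor both with and without SE 4, where 9.33% and 11.5% of the panel did, with medians of 0.38 and 0.34. The classical heavy chain gene H2-K1 counted 2623, 2191, 2825 and 2542 in the PBS tumors and 3634, 3348, 4654 and 6224 in the SE tumors (0.81 ± 0.21, and 0.61 ± 0.14 without SE 4). H2-D1 counted 14490.0, 10584, 14802 and 13090.0 in the PBS tumors and 17124, 16361, 28823 and 42209 in the SE tumors (0.98 ± 0.32). Both were highest in SE 4. Class I genes are close in sequence, and whether probes crossed between them was not tested. Nlrc5, the class I counterpart of Ciita, counted 559, 374, 577 and 574 in the PBS tumors and 749.9, 816, 984 and 764 in the SE tumors (0.67 ± 0.19, and 0.71 ± 0.18 without SE 4), with SE 3 highest. H2-M3, a nonclassical heavy chain that presents formylated peptides, and Tap1, a subunit of the peptide transporter, had log2 fold changes of 0.41 ± 0.15 and 0.32 ± 0.13 without overlap, while H2-T23, which encodes the ligand of an NK receptor, overlapped at SE 2 (0.67 ± 0.25). With panel median scaling 0 of the 14 separated with or without SE 4. With all tumors the class I median was then -0.03, and with TMM Tap1 was at -0.05 and the median at -0.07.

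**Figure D3:**
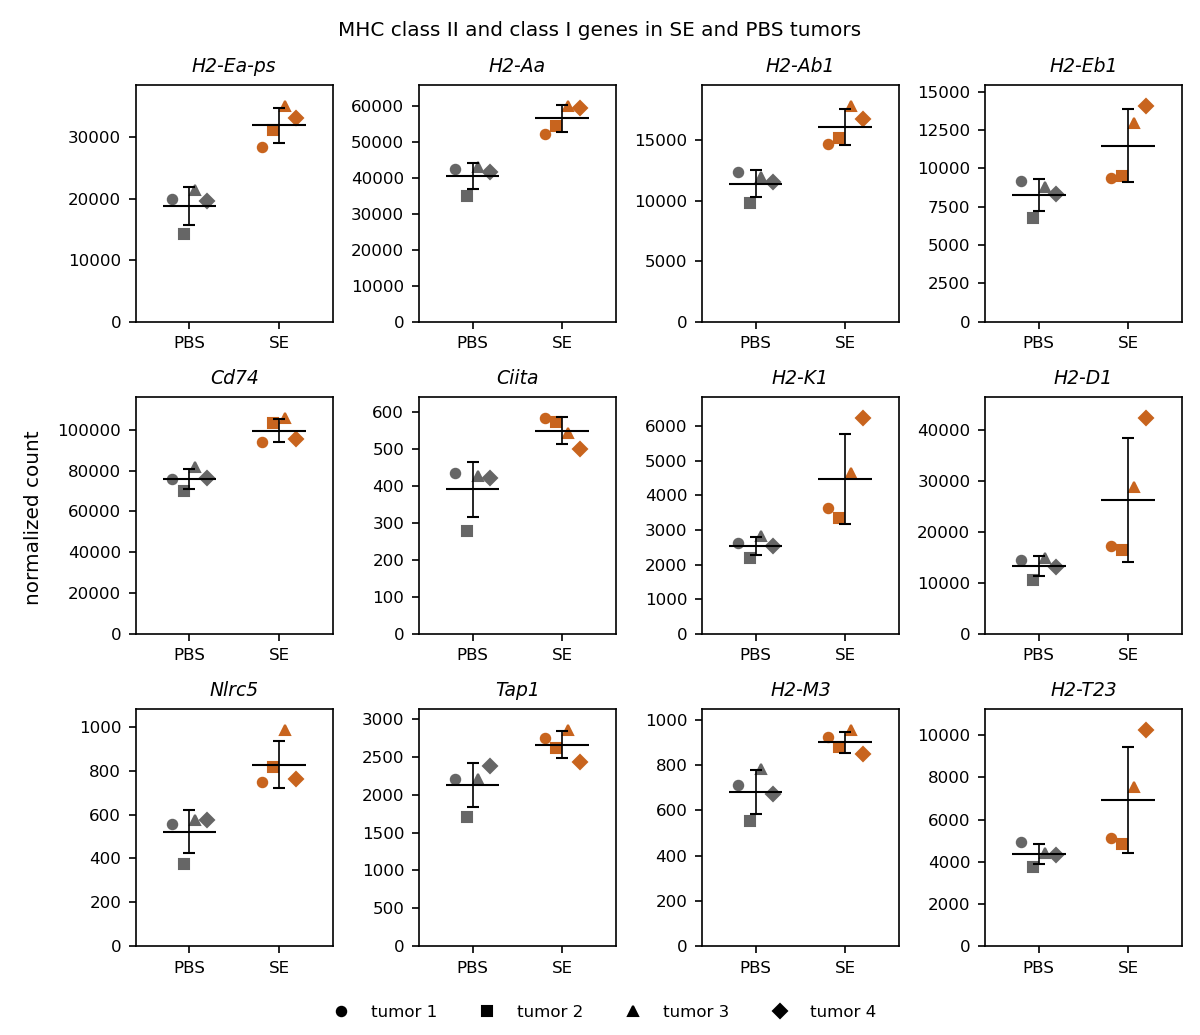
Normalized counts (vertical axis, from 0) of 6 class II genes (H2-Ea-ps to Ciita) and 6 class I genes (H2-K1 to H2-T23) in 4 PBS (grey) and 4 SE (orange) tumors, 1 symbol per tumor number, with the group mean (line) and SD (bar). Every SE tumor lay above every PBS tumor for all but H2-T23, and PBS 2 (square) was the lowest for each gene.

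Some genes of B cell surface proteins also separated relative to the reference genes. Of these, Ly86, Cd180, Cd48 and Cd200 were chosen after their values were seen. Of the 10 B cell markers, 0 lay above every PBS tumor and 1 below, where 9.33% and 0.933% of the panel did. Ly86 encodes MD-1 and Cd180 encodes RP105, which form a complex on B cells that resembles the TLR4 receptor. Ly86 counted 1602, 1719, 1712 and 1682 in the PBS tumors and 2234, 2370.1, 2324 and 2664 in the SE tumors, with the PBS tumors averaging 1679 ± 53.5 (SD, n = 4) and a log2 fold change of 0.51 ± 0.11, and 0.46 ± 0.07 without SE 4. Cd180 counted 1105, 1241, 1136 and 1091 in the PBS tumors and 1408, 1769, 2009 and 2226 in the SE tumors (0.70 ± 0.16, and 0.60 ± 0.13 without SE 4). Both partners were higher in all SE tumors. Ly96, which encodes MD-2, the corresponding partner of TLR4, counted 501, 578, 504 and 480.0 in the PBS tumors and 614, 596, 759.6 and 740.0 in the SE tumors (0.39 ± 0.15, but -0.04 with panel median and -0.06 with TMM scaling). Tlr4 itself counted 443, 414, 431 and 493 in the PBS tumors and 500.2, 482, 692 and 1047 in the SE tumors (0.61 ± 0.27), where SE 2 overlapped with PBS 4. Of the 19 genes of the list of Toll-like receptors and adaptors, Ly96 was the only one without overlap, a smaller share than the 9.33% of the panel, and the list's median was 0.54.

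Slamf7 and Cd48 belong to the SLAM family of adhesion and signalling receptors. Slamf7 counted 986, 883, 1125 and 1011 in the PBS tumors and 1507, 1459.6, 1958 and 1446 in the SE tumors (0.67 ± 0.15, and 0.71 ± 0.14 without SE 4). Cd48 counted 1135, 1188, 1154 and 1163 in the PBS tumors and 1356, 1535, 1519 and 1782 in the SE tumors (0.42 ± 0.12). Cd200, which encodes a ligand that restrains myeloid cells, counted 772, 816, 916 and 764 in the PBS tumors and 1049.6, 1200.3, 1172 and 1165 in the SE tumors (0.49 ± 0.12). Btla encodes an inhibitory receptor of B and T cells and counted 469.5, 502, 515 and 510.4 in the PBS tumors and 691, 737, 661 and 568 in the SE tumors (0.41 ± 0.14, and 0.48 ± 0.10 without SE 4). All 4 genes were higher in every SE tumor, with Slamf7 highest in SE 3 and Btla lowest in SE 4. Under panel median scaling of all 8 tumors each of the 6 genes Ly86, Cd180, Slamf7, Cd200, Cd48 and Btla overlapped, with log2 fold changes from 0.01 for Cd48 to 0.29 for Slamf7, and under TMM Cd48 was at -0.02. Without SE 4 they ran from 0.26 to 0.58 with panel median scaling and still overlapped.

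Lyn, a Src family kinase of the B cell receptor, had counts of 875, 888, 945 and 972 in the PBS tumors and 1145, 1215, 1519 and 2012 in the SE tumors (0.68 ± 0.19). Tgfbr1, a receptor chain for TGF-beta, counted 464, 448, 450.4 and 456 in the PBS tumors and 603, 624, 708 and 1137 in the SE tumors (0.76 ± 0.23). These 2 genes, Stat2 (0.58 ± 0.20), Psen2 (0.51 ± 0.15) and Cmah (1.11 ± 0.36) were without overlap and were called by DESeq2 with and without SE 4, as were H2-Ea-ps, H2-Aa, H2-Ab1, Cd74, H2-K1, Nlrc5, Ly86, Cd180, Slamf7, Cd200, Cd48, Btla, Il1a, Lta, Ada and Mmp9. C8a, a terminal complement chain, made up the 22, with counts of 33.7, 39.7, 74.2 and 60.0 in the PBS tumors and 123, 153, 117 and 62.2 in the SE tumors and SE 4 inside the PBS range. None of Lyn, Tgfbr1, Stat2, Psen2 and Cmah was without overlap under all 3 scalings. The DESeq2 calls used the reference gene scaling, and the fits with and without SE 4 share all other tumors, so they are not independent. Cd69, an early activation marker of lymphocytes, counted 306, 172, 278 and 355 in the PBS tumors and 541, 511, 418 and 465 in the SE tumors (0.80 ± 0.25) and was higher in SE 1 and SE 2 than in SE 3 and SE 4.

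Identity genes of the B lineage lay near the PBS level relative to the reference genes. Over the 10 B cell markers the median log2 fold change was -0.03, and -0.04 without SE 4. Either way 0 of 10 had an unadjusted p under 0.05 in edgeR, where 19.6% and 12.4% of the panel did. With panel median scaling the median was -0.35, and 0 of 10 were above 0. Ms4a1, which encodes CD20, counted 7939, 10356, 8956 and 8850.2 in the PBS tumors and 8925, 10609, 7546 and 5465 in the SE tumors. Cd79b, a chain of the B cell receptor, counted 6325, 7181, 5999.6 and 6299 in the PBS tumors and 5955, 6813, 4565 and 4487 in the SE tumors. In both, SE 3 and SE 4 were the lowest tumors while SE 1 and SE 2 were near the PBS tumors. Of the other markers, Cr2 was at 0.39, Cd37 at -0.15, Cd22 at -0.01, Cd79a at -0.04, Pax5 at -0.005, Blnk at 0.11 and Blk at 0.26, of which Cr2, Blnk and Blk were below 0 with panel median and TMM scaling. Pou2f2, which encodes the B cell factor Oct-2, counted 513, 561, 464 and 601 in the PBS tumors and 419.8, 371, 420.2 and 403 in the SE tumors, lower in all 4 SE tumors (-0.41 ± 0.15). Bcl2l1 encodes the survival protein Bcl-xL and counted 2882, 3009, 3256 and 2862 in the PBS tumors and 4541, 5319.8, 4305 and 2580.3 in the SE tumors. SE 1 to 3 were well above the PBS tumors and SE 4 below them, and without SE 4 its log2 fold change was 0.65 ± 0.10 (edgeR adjusted p 0.11, the smallest with that of Ly86). The proliferation list had a median of 0.01.

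Genes of macrophages, phagocytosis and lipid handling were high in SE 3 and SE 4 and mostly not in SE 1 and SE 2. The list of scavenger receptors and lipid handling had the highest median of all pathway lists, 1.72, and 0.84 without SE 4, with tumor medians of -0.27, -0.19, 1.78 and 2.99 for SE 1 to 4. None of its 13 genes separated the groups, where 9.33% of the panel were higher without overlap. At an unadjusted p under 0.05 in edgeR 7 were higher, and 2 without SE 4, where 18.8% and 10.7% of the panel were. With panel median scaling the list's median was 0.59, and 0.41 without SE 4. Cd36, a scavenger receptor that takes up lipoproteins and fatty acids, counted 429, 458, 389 and 366 in the PBS tumors and 456, 767, 2010.1 and 8848 in the SE tumors (2.88 ± 0.89, and 1.39 ± 0.45 without SE 4). SE 2 was above all PBS tumors and SE 1 within their range. Apoe, which encodes apolipoprotein E, counted 4278, 2557, 5815 and 3815 in the PBS tumors and 3403, 5813, 30709 and 75429 in the SE tumors (2.81 ± 0.93). Abcg1, a cholesterol exporter, counted 398, 221, 301 and 338 in the PBS tumors and 414, 269, 1406 and 2066 in the SE tumors (1.72 ± 0.62). Trem2, a lipid-sensing receptor of macrophages, counted 159.9, 92.6, 101 and 137 in the PBS tumors and 89.8, 85.4, 858 and 1748 in the SE tumors (2.50 ± 0.96). Pparg, a nuclear receptor for fatty acids, was at 112 in SE 3 and 594 in SE 4 against 20.8 to 29.0 with PBS.

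Macrophage markers were high in the same tumors. Over 10 monocyte and macrophage markers the summed count was 28967 to 36452 with PBS and 24160.4, 31542, 72799 and 113427 with SE, and no marker was at 0 in any tumor. Their median log2 fold change was 1.37, and 0.34 with panel median scaling. Cd68, a lysosomal protein of macrophages, counted 1544, 1434, 1229 and 1610.4 in the PBS tumors and 1137, 956, 5193 and 7771 in the SE tumors. Lyz2, lysozyme, counted 33207, 27488, 26492 and 29934 in the PBS tumors and 21978, 29624, 62404 and 94779.8 in the SE tumors. Ctsl, a lysosomal protease, counted 890.4, 728, 533 and 856 in the PBS tumors and 573, 556, 5129 and 11402 in the SE tumors (2.55 ± 0.95). Cd68 was below the PBS range in SE 1 and SE 2, Lyz2 in SE 1, and Ctsl was within it in both. Ctss encodes the protease that trims the invariant chain and counted 8197, 6579.6, 7588 and 7659 in the PBS tumors and 8672, 7611, 20517 and 24771 in the SE tumors (1.04 ± 0.38). Lgals3, galectin-3, counted 6408, 4875, 4813 and 5538 in the PBS tumors and 3939.9, 3175, 25707 and 35813 in the SE tumors (1.67 ± 0.75). SE 1 was just above the PBS range in Ctss, and SE 1 and SE 2 were below it in Lgals3. Fcgr1 and Fcgr4 encode receptors for IgG. Fcgr1 counted 132, 84.1, 82.3 and 129.6 in the PBS tumors and 189.7, 82.2, 604 and 697 in the SE tumors (1.87 ± 0.65). Fcgr4 counted 316, 180.5, 310.1 and 252 in the PBS tumors and 583, 195, 992 and 950.2 in the SE tumors (1.36 ± 0.48). SE 1 but not SE 2 was above the PBS tumors in both. Plau, which encodes the plasminogen activator urokinase, counted 419.9, 269, 352 and 362 in the PBS tumors and 374, 367, 2597 and 3434 in the SE tumors (2.27 ± 0.75, and 1.66 ± 0.69 without SE 4). The smallest p of the macrophage markers belonged to Cd33, a sialic acid receptor of myeloid cells (2.14 ± 0.81), that of the C-type lectins to Clec7a, the beta-glucan receptor dectin-1 (0.90 ± 0.35), and that of the dendritic cell markers to Cd207, langerin of Langerhans cells (1.92 ± 0.93). How far the number of macrophages set these values was not tested.

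Cytokine and chemokine genes mostly followed the same order. Ccl2 and Ccl7 encode the ligands of CCR2 that attract monocytes. Ccl7 counted 133, 108, 139 and 145 in the PBS tumors and 119, 113, 833 and 1218 in the SE tumors (2.12 ± 0.78, and 1.43 ± 0.70 without SE 4). Ccl2 was at 892, 843, 3452 and 5173 in the SE tumors against 994 to 1250.4 with PBS. Il1b counted 122, 69.9, 102 and 139 in the PBS tumors and 255, 91.7, 337 and 669 in the SE tumors (1.64 ± 0.56), so SE 2 alone overlapped. Il18, another cytokine of the inflammasome, counted 61.7, 86.0, 137 and 90.4 in the PBS tumors and 83.0, 178, 396 and 559.8 in the SE tumors (1.69 ± 0.59). The IL-1 and inflammasome list had a median of 1.07 with all tumors and 0.55 without SE 4, and Il1a was the only one of its 14 genes without overlap, where 9.33% of the panel were higher without overlap. With panel median scaling the list's medians were 0.24 and 0.19. In the IL-6 family the smallest p belonged to Osm, oncostatin M (1.48 ± 0.61), and Il6 counted 8.77, 10.5, 34.1 and 92.2 in the SE tumors against 10.4 to 15.0 with PBS. Ccl5 counted 649, 307, 507 and 694 in the PBS tumors and 1023, 526, 964 and 2737 in the SE tumors (1.28 ± 0.51), with SE 2 inside the PBS range. Ppbp, a platelet chemokine that attracts neutrophils, was mostly lower in SE tumors, at 110.4, 197, 38.9 and 143 in the PBS tumors and 55.3, 16.9, 21.5 and 45.0 in the SE tumors (-1.82 ± 0.60), and only SE 1 and SE 4 exceeded PBS 3. Ccl26, an eosinophil chemokine, was without overlap but near the lower end of the counts, at 7.48, 6.61, 10.3 and 4.00 in the PBS tumors and 12.1, 14.8, 16.4 and 21.4 in the SE tumors. Nfkbia, the inhibitor that NF-kB induces, counted 785, 648, 761 and 802 in the PBS tumors and 934, 920.0, 1124 and 1426 in the SE tumors (0.56 ± 0.18). Egr1, an immediate early gene, counted 462, 382, 381 and 534 in the PBS tumors and 507, 506, 1066 and 1233 in the SE tumors (0.91 ± 0.34).

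All 30 genes of the list of interferon-stimulated genes had a log2 fold change above 0 with all tumors and 27 without SE 4, as did 667 and 567 of the 750 panel genes. The list had medians of 0.86 and 0.29 against the panel's 0.56 and 0.22, and 6 were without overlap both times, where 9.33% and 11.5% of the panel were. With panel median scaling 19 of 30 and 22 of 30 were above 0. Rsad2, the antiviral enzyme viperin, was the one with the smallest p and counted 37.8, 44.3, 126 and 120.1 in the SE tumors against at most 31.2 with PBS (1.83 ± 0.54, and 1.59 ± 0.54 without SE 4). The 7 genes of the interferon-gamma response had medians of 0.18 and 0.15, below those of the panel. With and without SE 4, 0 of 7 had an unadjusted p under 0.05 in edgeR, where 19.6% and 12.4% of the panel did. With panel median scaling the medians with all tumors were 0.07 for the interferon-stimulated and -0.19 for the interferon-gamma list, and without SE 4 they were 0.08 and 0.10. The difference between the lists was not tested. Ifng was near the lower end of the counts in all tumors, at 27.1, 12.3, 22.8 and 27.2 in the PBS tumors and 26.3, 21.1, 30.3 and 23.6 in the SE tumors (0.18 ± 0.31, but -0.19 with panel median scaling). Cxcl9, a chemokine induced by interferon-gamma, counted 2815, 1791, 1933 and 2085 in the PBS tumors and 3229.8, 2385, 3422 and 2443 in the SE tumors (0.41 ± 0.19). Gbp5, a guanylate-binding protein, counted 322, 212, 245 and 318 in the PBS tumors and 383, 286, 369.7 and 536 in the SE tumors (0.52 ± 0.26), and both overlapped.

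Stromal, mast cell and lymphoid tissue genes were highest in SE 4 by a wide margin. In 36 genes with a mean of at least 20, SE 4 was at least 5 times every other tumor. Col3a1, a fibrillar collagen of fibroblasts, counted 4506, 5206, 2078 and 5542 in the PBS tumors and 1680.0, 2258, 18528 and 95957 in the SE tumors (2.77 ± 1.22, and 0.79 ± 0.82 without SE 4). Col1a1 counted 2162, 2319, 1284 and 2650.3 in the PBS tumors and 1098, 1356, 8458 and 26028 in the SE tumors. The 14 endothelial and fibroblast markers summed to 5519 to 12393 with PBS and 4908, 6008, 32388 and 147589 with SE, none at 0, and the list's median went from 1.38 to 0.17 without SE 4. With panel median scaling these medians were 0.33 and -0.01. Cd34 had the smallest p of this list (2.22 ± 0.94). Cma1, the mast cell chymase, counted 58.0, 56.7, 54.4 and 52.8 in the PBS tumors and 31.7, 32.7, 334 and 2181 in the SE tumors. The 4 mast cell markers summed to 118 to 144 with PBS and 95.8, 93.8, 488 and 2908 with SE. Their median log2 fold change was 1.69, and 0.54 with panel median scaling. Epcam, an epithelial adhesion protein, counted 119.7, 222, 323 and 114 in the PBS tumors and 203, 178, 1148 and 4614 in the SE tumors. Cfd, the complement protease factor D that fat cells secrete, counted 376, 782, 392 and 194 in the PBS tumors and 79.6, 79.0, 1955 and 75643 in the SE tumors. Cfd was about level in SE 1 and SE 2, below every PBS tumor, and highest in SE 4.

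Glycam1 encodes a mucin of the high endothelial venules of lymph nodes, and its counts were 42.1, 50.1, 24.2 and 32.0 in the PBS tumors and 12.1, 10.5, 10.1 and 9753 in the SE tumors. The 3 other SE tumors were below every PBS tumor, so the log2 fold change was 6.04 ± 2.43 with SE 4 and -1.74 ± 0.33 without it. Ccl21a, a chemokine of the same venules, counted 59.9, 52.0, 253 and 40.0 in the PBS tumors and 37.8, 51.6, 1279.5 and 14148 in the SE tumors (5.25 ± 1.92, and 2.16 ± 1.28 without SE 4). Lcn2, a neutrophil and epithelial iron carrier, was at 3672 in SE 4 and 67.5 to 170.4 in SE 1 to 3. The source of the endothelial, epithelial and fat cell transcripts in SE 4 was not tested, and the part these played in any other result was not tested.

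**Figure D4:**
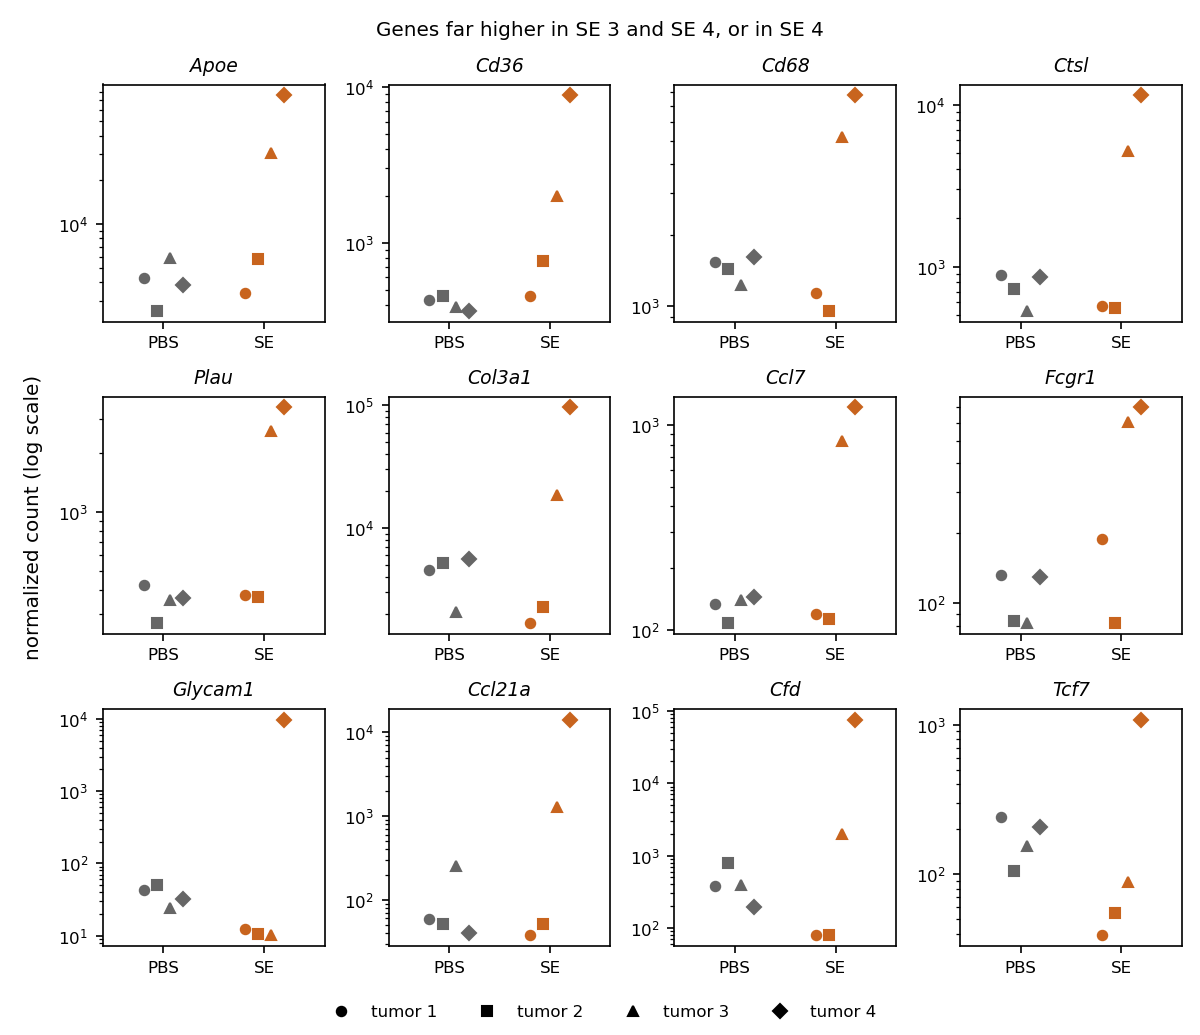
Normalized counts (vertical axis, log scale, with its own range in each panel) of 12 genes in 4 PBS (grey) and 4 SE (orange) tumors, 1 symbol per tumor number. In the first 8 genes SE 3 (triangle) and SE 4 (diamond) lay above the other tumors, and in Glycam1 and Tcf7 SE 4 alone did, with SE 1 to 3 below the PBS tumors.

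Most T cell markers had opposite signs with and without SE 4. Over 11 T cell markers the median log2 fold change was 0.24 with 10 of 11 above 0, and without SE 4 it was -0.85 with 0 of 11 above 0. With panel median scaling of all 8 tumors it was -0.72. Their summed counts were 1333 to 3417 with PBS and 1071, 1264, 1878 and 7661 with SE. Cd3e, a chain of the T cell receptor complex, counted 544, 189.9, 320.4 and 502 in the PBS tumors and 148, 182, 286 and 1255 in the SE tumors, a log2 fold change of 0.26 ± 0.72 with SE 4 and -0.92 ± 0.41 without it. PBS 2 lay with SE 1 and SE 2 here, so the groups overlapped without SE 4 too. Without SE 4, 1 of the 11 genes had an unadjusted p under 0.05 in edgeR, where 12.4% of the panel did. Tcf7, a transcription factor of naive and memory T cells, counted 240.4, 105, 155 and 206 in the PBS tumors and 39.1, 54.8, 88.3 and 1079 in the SE tumors (0.83 ± 1.05, and -1.55 ± 0.41 without SE 4). SE 1 to 3 were below all PBS tumors. Ccl19 and Cxcl13, chemokines that place T cells and B cells in lymphoid tissue, were also below all PBS tumors in SE 1 to 3, and had negative log2 fold changes with and without SE 4. Ccl19 counted 959, 731, 1072 and 862 in the PBS tumors and 317, 349, 493 and 1373 in the SE tumors (-0.52 ± 0.47, and -1.23 ± 0.20 without SE 4, edgeR adjusted p 0.112). Cxcl13 counted 822, 1676, 881 and 1224 in the PBS tumors and 384, 188, 580.5 and 2396 in the SE tumors (-0.38 ± 0.72, and -1.58 ± 0.42 without SE 4). Cxcr4, the receptor for Cxcl12, counted 3014, 2037, 3114 and 2727 in the PBS tumors and 4541, 3231, 3823 and 3059 in the SE tumors (0.43 ± 0.19, and 0.51 ± 0.18 without SE 4). Without SE 4, panel median scaling called 1 gene, Tcf7, and TMM scaling called 1 gene, Ccl19, at an adjusted p under 0.05 in edgeR.

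**Figure D5:**
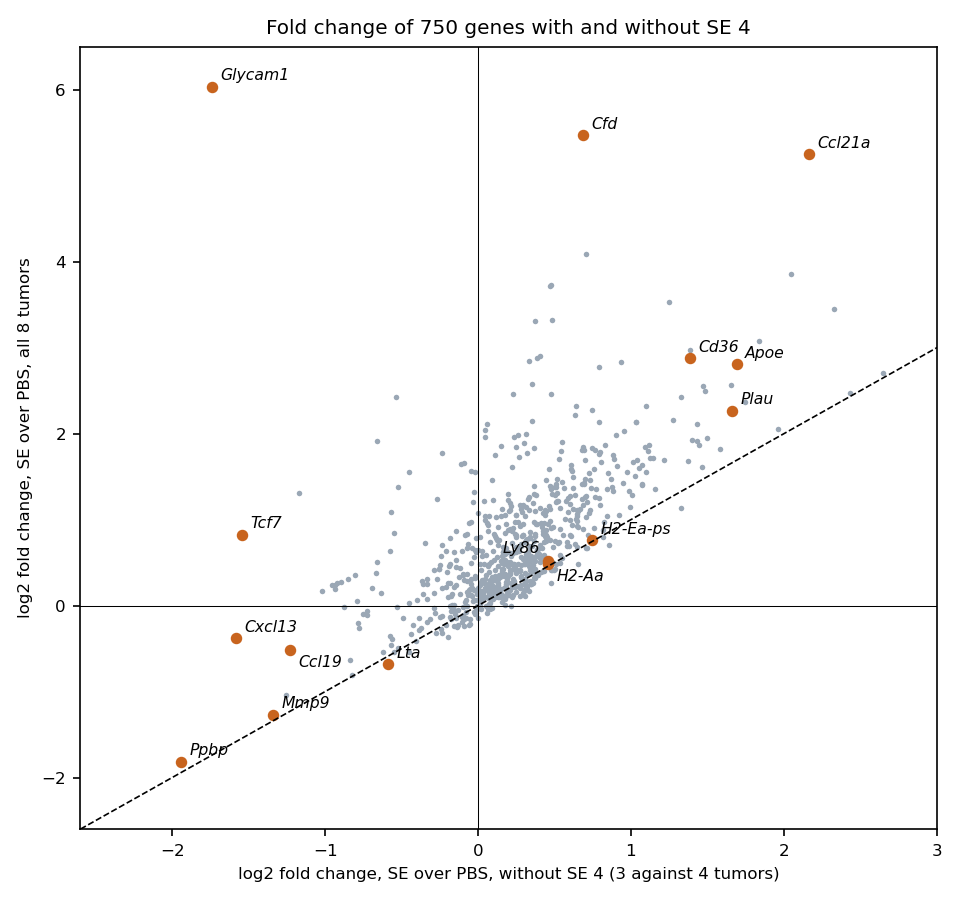
Log2 fold change of SE over PBS for 750 genes with all 8 tumors (vertical axis) against the same without SE 4 (horizontal axis), with 15 genes named (orange) and the line of equal values (dashed). Most genes lay above the line, H2-Ea-ps, H2-Aa, Ly86, Lta and Mmp9 lay close to it, and Glycam1 and Tcf7 were positive with SE 4 and negative without it.

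The genes of the checkpoint, costimulatory and cytotoxic lists, which do not hold Tnfsf4, overlapped between the groups with all 8 tumors, apart from Btla. Most of the panel overlapped as well, with 9.33% of genes higher and 0.933% lower without overlap. Pdcd1, which encodes PD-1, counted 282, 72.7, 137 and 230.4 in the PBS tumors and 47.9, 114, 192 and 144 in the SE tumors (-0.54 ± 0.54). Cd274, its ligand PD-L1, counted 1166, 814, 922 and 1006 in the PBS tumors and 1393, 1002, 1779 and 1280.5 in the SE tumors (0.48 ± 0.20, and 0.51 ± 0.21 without SE 4), with only SE 2 inside the PBS range. Lag3 was at -0.06 ± 0.33 and Ctla4 at 0.25 ± 0.48. Havcr2 (0.46 ± 0.33) and Cd244 (0.51 ± 0.39) were near the lower end of the counts. Of the costimulators, Cd40 counted 472, 476, 472 and 547 in the PBS tumors and 591, 598, 603 and 528 in the SE tumors, above PBS in SE 1 to 3 but not in SE 4 (0.24 ± 0.14). Cd86 counted 258, 180.5, 246 and 221 in the PBS tumors and 214, 253, 462 and 624 in the SE tumors (0.78 ± 0.37) and Cd80 107, 117, 94.1 and 136 in the PBS tumors and 110.0, 74.8, 146 and 191 in the SE tumors (0.20 ± 0.35). Gzma, a granule protease of NK and T cells, had the smallest p of the cytotoxic list (1.22 ± 0.55), and the list's median was 0.14. The 10 NK cell markers, led by Klra7 (0.74 ± 0.51), had a median of 0.29, and 0.01 without SE 4. The 9 neutrophil markers had 0.62 and -0.16, with S100a8 at 91.8, 65.3, 376 and 665 in the SE tumors against 69.2 to 99.9 with PBS. Arg1, arginase, varied widely among the PBS tumors, from 56.6 to 698, and was 203, 89.6, 145 and 242 with SE (-1.04 ± 0.67), and Arg2 was at 0.99 ± 0.52. Vcam1, an adhesion molecule of vessels, counted 763, 523, 759.8 and 659 in the PBS tumors and 652, 1094, 1296 and 1471 in the SE tumors (0.74 ± 0.26), with SE 1 inside the PBS range.

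The G100 tumors, which received the same emulsion with GLA, differed from these 4 SE tumors in 16 of 750 genes (2.13%) by edgeR at an adjusted p under 0.05, all 16 higher in G100. The count was 0 with panel median scaling, and leaving out 1 tumor gave 2 (without G100 2) to 107 (without SE 4). This comparison uses the SE tumors again, and many of the genes below were picked for their values in those tumors. A gene picked as low with SE is favored to be higher in G100, and one picked as high to be lower. The values and their p-values are therefore only set beside those of SE over PBS, and no effect of GLA is read from them. Of the genes lower with SE than with PBS, Mmp9 had a log2 fold change of G100 over SE of 1.77 (edgeR adjusted p 0.024), Tnfsf4 2.04 (0.03), Lta 1.18 (0.076) and Ada 0.39 (0.37). Of those higher with SE, H2-Ea-ps was at 0.46 (0.46), H2-Aa at 0.57 (0.25), Cd180 at -0.56 (0.17), Cd200 at 0.08 (0.91) and Il1a at 2.34 (0.24). Cd36 and Apoe were at -1.71 (0.31) and -0.75 (0.7). Cxcl9 was at 1.46 (0.016) and Gbp5 at 2.04 (0.028). Both overlapped between SE and PBS. Without SE 4, Tcf7, Ccl19 and Cxcl13 were at 2.40 (0.016), 1.39 (0.016) and 2.18 (0.021).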

How the data were processed

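The nCounter mouse PanCancer Immune Profiling Panel was read in 12 A20 tumors. The authors deposited whole-number counts of barcoded probes per gene. The study's methods name normalization in nSolver, but totals and reference genes differ between tumors, so the counts were treated as not normalized, and the count test named in the design for that case was used. No build or aligner applies to probe counts. For SE against PBS the geNorm procedure kept 15 of the 20 reference genes, each tumor was scaled to their geometric mean, and a quasi-likelihood test of the other 750 genes was run in edgeR 4.0.16 under R 4.3.3 (no filter, no covariate), with Benjamini-Hochberg adjustment and a threshold of 0.05. The standard error of a fold change was taken from the F statistic. For G100 against SE geNorm kept 12. Alternatives were panel median and TMM scaling, all reference genes, a filter of 20 counts, DESeq2 1.42.0, limma 3.58.1 on log2(normalized count + 1), all 12 tumors in 1 fit, the replicate number as a block, and leaving out each tumor. The fits were tested on simulated data. Plots were made in Python 3.11.15, using matplotlib 3.10.9.

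The members and gene lists were chosen with earlier results of these data known. By rule the text names B cell markers, genes the paper names and, since no gene passed, the member of each list with the smallest p, 54 genes in all. Another 59 were chosen after their values were seen. The highest share of genes with an equal count in 2 tumors was 2.4%, so each tumor was kept as its own sample. Total counts were 810260 to 1268512 in the 8 tumors, and 81 genes had a mean under 20 normalized counts. No pairing of the tumors by the replicate numbers of the titles was seen. Gene symbols are those of the deposited table. Some genes that the rule or the comparisons would name are not reported here.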

Additional observations from a re-analysis of the deposited data

Results flagged for a closer look

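In 22 of 302 sets of 4 tumors (a gene or gene list in 1 group), 1 tumor was distant from its group (Dixon's ratio). For sets not picked by their values, chance gives about 1 in 20 (5%, or 15.1 sets). Many of the genes were chosen after their values were seen, so the counts of distant tumors cannot be judged against that rate. SE 4 was the distant tumor in 12. It was high in Ccl19 (1373 normalized counts), Ccl21a (14148), Cd3e (1255), Cfd (75643), Cma1 (2181), Glycam1 (9753), Lcn2 (3672), Pparg (594) and Tcf7 (1079), and in the median log2 ratio of the apoptosis regulators (0.51). It was low in Cd40 (528) and Lta (446). SE 3 was high in H2-DMb1 (34.1) and Slamf7 (1958).

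Of the PBS tumors, PBS 3 was high in Ccl21a (253) and PBS 4 in Cd40 (547). PBS 2 was distant in Cdkn1a (299), a cell cycle inhibitor gene, and low in Ciita (279), H2-Aa (35046), H2-Ob (662), Nlrc5 (374) and the median log2 ratio of the class II list (-0.26).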

How the results depend on the processing

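No call at an adjusted p under 0.05 was made in edgeR or limma under any alternative with all 8 tumors, so the values depend on the processing mainly in their sign and in the counts at an unadjusted p. With all 20 reference genes, the low count filter or all 12 tumors in 1 fit, every named gene that was tested kept its sign. Of the 113 named genes, 16 turned sign with panel median and 20 with TMM scaling. Panel median scaling gave 67 genes at an unadjusted p under 0.05, a panel median of -0.04 and 25 genes without overlap, and turned the sign of Blk -0.16, Blnk -0.17, Cd244 -0.034, Cd3e -0.72, Cd4 -0.086, Cd40 -0.085, Cd80 -0.38, Cr2 -0.26, Ctla4 -0.41, H2-Dma -0.043, H2-DMb1 -0.0064, H2-Ob -0.0029, Havcr2 -0.14, Ifng -0.19, Ly96 -0.037 and Tcf7 -0.53. TMM gave 67, -0.0086 and 34, and turned Blk -0.19, Blnk -0.24, Cd244 -0.0043, Cd3e -0.57, Cd40 -0.14, Cd48 -0.022, Cd74 -0.00065, Cd80 -0.36, Cr2 -0.22, Ctla4 -0.36, H2-Dma -0.10, H2-DMb1 -0.0079, H2-DMb2 -0.054, H2-Eb1 -0.0046, H2-Ob -0.061, Havcr2 -0.089, Ifng -0.20, Ly96 -0.060, Tap1 -0.048 and Tcf7 -0.25. DESeq2 called 66 genes, with 265 at an unadjusted p under 0.05. Limma had 71, with Cd3e -0.19 and Tcf7 -0.48. No pairing by replicate number was seen: deviations of same-numbered tumors correlated at -0.13, 0.04, 0.18 and 0.01, which cannot exclude a pairing. With the replicate number as a block 51 genes had an unadjusted p under 0.05, 0 were called for G100 against SE, and Cd3e -0.18, Glycam1 -0.49 and Tcf7 -0.60 had turned.

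Leaving out 1 tumor gave 45 (without PBS 2) to 295 (without SE 2) genes at an unadjusted p under 0.05, with 282 without SE 1, 74 without SE 3, 93 without SE 4 and 58 to 64 without PBS 1, PBS 3 or PBS 4. The genes without overlap numbered 81 (without SE 3) to 134 (without SE 2), and G100 against SE had 2 to 107 calls. The genes that turned had the ranges Cd22 -0.18 to 0.10, Cd3e -0.92 to 0.56, Cd4 -0.084 to 1.12, Cd79a -0.13 to 0.021, Cd80 -0.041 to 0.39, Cr2 -0.20 to 0.62, Ctla4 -0.045 to 0.50, Glycam1 -1.74 to 6.45, Ifng -0.019 to 0.29, Lag3 -0.24 to 0.092, Ms4a1 -0.30 to 0.00026, Pax5 -0.11 to 0.062 and Tcf7 -1.55 to 1.20. Without SE 4 and with reference genes chosen again there were 75 genes, with Cd3e -0.95, Cd4 -0.11, Cd80 -0.061, Cr2 -0.22, Ctla4 -0.067, Glycam1 -1.76, Pax5 0.037 and Tcf7 -1.57. Without SE 4, panel median scaling called 1 gene, TMM 1 and DESeq2 28. Panel median scaling called 0 genes for G100 against SE. Genes with a mean under 20 counts are the least precise.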
